A study of Rattus norvegicus with 12 samples.

Results

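The genes described here are those of the unfolded protein response and the integrated stress response, followed from a rat fibroblast line to tumour cells grown from it. The set is a fixed list of 32 genes, matched by gene symbol to an Affymetrix rat expression array, with the brightest probe set taken where a gene had several. Of the 32 genes, 31 could be read among 14217 genes measured in all, and Ern1, which encodes the sensor IRE1, had no probe set under its symbol. By role the 31 measured genes were 14 chaperones and folding enzymes, 4 genes of endoplasmic reticulum-associated degradation (ERAD), 5 sensors and transcription factors, and 8 genes known as targets of the transcription factor ATF4.

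Both groups came from F111, a single fibroblast line of the rat that the study calls normal. The study reports that F111 cells were already aneuploid. In its karyotypes, a translocation seen in a minority of A16 cells was present in all tumour-derived cells. Karyotype and group therefore cannot be told apart here, and the part of karyotype in the differences below was not tested. A16 cells had been plated on plastic for 16 h and served as the control. Tumor cells were cultured out of tumours in nude mice 3 months after NA16 cells, which are F111 cells kept for 16 h in suspension, had been injected under the skin. Nude mice lack T cells but keep their other host cells, and no step to remove these from the cultures is given in the sources used here. No other agent or genetic change was applied to either group, and both were grown in DMEM with fetal calf serum, although the study's methods give a higher share of serum for the explanted tumour cells than the labels do. Each group held 3 arrays from 2 replicates, the third array being a technical repeat, so that the error of every comparison rests on n = 2 per group. Nothing in the labels says whether the 2 replicates were separate cultures or separate tumours, so the p-values measure the spread between these samples.

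The endoplasmic reticulum folds secreted and membrane proteins, and unfolded proteins there set off 3 sensors, IRE1, PERK and ATF6. IRE1 splices the messenger RNA of Xbp1 and ATF6 is cut to release a transcription factor, and both raise chaperones and ERAD genes. PERK, like the amino acid sensor GCN2, phosphorylates the initiation factor eIF2alpha, which lowers translation in general but favours that of ATF4, the activator of genes for amino acid supply and of the factors CHOP and TRIB3. An array reads the messenger RNA level only, so that splicing of Xbp1, cleavage of ATF6 and phosphorylation of eIF2alpha were not measured.

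The listed chaperones and ATF4 targets differ in the control sequences before their genes. The ER stress response element (ERSE, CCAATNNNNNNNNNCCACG), its second form ERSE-II (ATTGGNCCACG), the core of the unfolded protein response element (UPRE, TGACGTGG) and the C/EBP-ATF element read by ATF4 (CARE, TGATGNAA) were searched on both strands of RefSeq promoter windows of build GRCr8, which run from 250 bases before a gene's start to 50 bases after it. A window was found for 27 of the 32 genes. ERSE was present in 0.0657% of all 33469 rat windows, ERSE-II in 0.0508%, the UPRE core in 0.595% and CARE in 3.98%. Of 11 chaperone windows, 6 held ERSE and 2 held ERSE-II, whereas none of 8 ATF4 target windows held either and 2 of the 8 held CARE. Folding genes outside the list, described further below, did not share this. Of 29 windows of other folding and translocation genes, 1 held ERSE and 0 held ERSE-II. The ERSE sites are shown because 6 of the 11 chaperone windows share them. They are printed 5′ to 3′ on the strand that carries the motif, with the fixed letters in capitals.
Hspa5, chr3:38452973-38452991, plus strand: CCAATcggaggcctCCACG
Hsp90b1, chr7:23012451-23012469, minus strand: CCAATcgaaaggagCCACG
Hsp90b1, chr7:23012347-23012365, plus strand: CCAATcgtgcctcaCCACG
Calr, chr19:40213135-40213153, minus strand: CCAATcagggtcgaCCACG
Canx, chr10:35158069-35158087, minus strand: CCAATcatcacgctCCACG
Dnajc3, chr15:102432534-102432552, plus strand: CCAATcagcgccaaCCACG
Creld2, chr7:121789239-121789257, minus strand: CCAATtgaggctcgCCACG
Xbp1, chr14:84604558-84604576, plus strand: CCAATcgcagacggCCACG

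The stretches before 5 members that carry the results below are shown with more of their surroundings, on the strand of the gene, with every motif match in capitals. In Hspa5 the capitals mark ERSE, in Hyou1 they mark first a UPRE core overlapping an ERSE-II and then a second ERSE-II, in Herpud1 they mark CARE and then ERSE-II, and in Trib3 and Chac1 they mark CARE. A match is a description of the letters and does not show that a factor bound there.
Hspa5, chr3:38452933-38453015, plus strand: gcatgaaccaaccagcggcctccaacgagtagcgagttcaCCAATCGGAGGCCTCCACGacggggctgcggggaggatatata
Hyou1, chr8:53602651-53602844, plus strand: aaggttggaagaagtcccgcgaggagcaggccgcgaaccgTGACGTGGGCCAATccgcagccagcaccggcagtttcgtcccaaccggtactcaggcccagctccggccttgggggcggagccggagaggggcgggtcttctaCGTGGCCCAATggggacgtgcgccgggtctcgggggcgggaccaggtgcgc
Herpud1, chr19:10614781-10614931, minus strand: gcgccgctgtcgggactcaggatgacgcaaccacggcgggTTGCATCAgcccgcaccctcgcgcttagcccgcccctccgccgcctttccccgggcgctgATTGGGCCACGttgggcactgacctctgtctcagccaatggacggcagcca
Trib3, chr3:161275534-161275594, minus strand: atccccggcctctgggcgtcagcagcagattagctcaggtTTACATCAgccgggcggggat
Chac1, chr3:126795924-126796011, plus strand: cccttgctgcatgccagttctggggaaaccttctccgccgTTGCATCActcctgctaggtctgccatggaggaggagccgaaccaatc

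Most of these genes did not reach a change of 2-fold between A16 and Tumor cells. A gene was called when limma gave an adjusted p under 0.05 over all probe sets and the fold was at least 2, and differences are on the log2 scale of the RMA intensity, Tumor minus A16. By this rule 1 member rose, Chac1, and 2 fell, Trib3 and Hyou1, while 28 were not called. That is 3.23% of the members called higher, where 5.45% of all genes were, and 6.45% called lower, where 5.44% of all genes were. Without the fold minimum, 6 members were higher at an adjusted p under 0.05, or 19.4% beside 17.4% of all genes, and 7 were lower, or 22.6% beside 16.6%. The 3 arrays of one group did not overlap the 3 of the other for 17 of the 31 members, of which 8 were higher and 9 lower in Tumor cells, and the same held for 55.9% of all genes. The median difference over the members was -0.01, beside 0.03 over all genes. In bulk samples such as these, fewer cells of a type and less RNA per cell cannot be told apart.

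**Figure D1:**
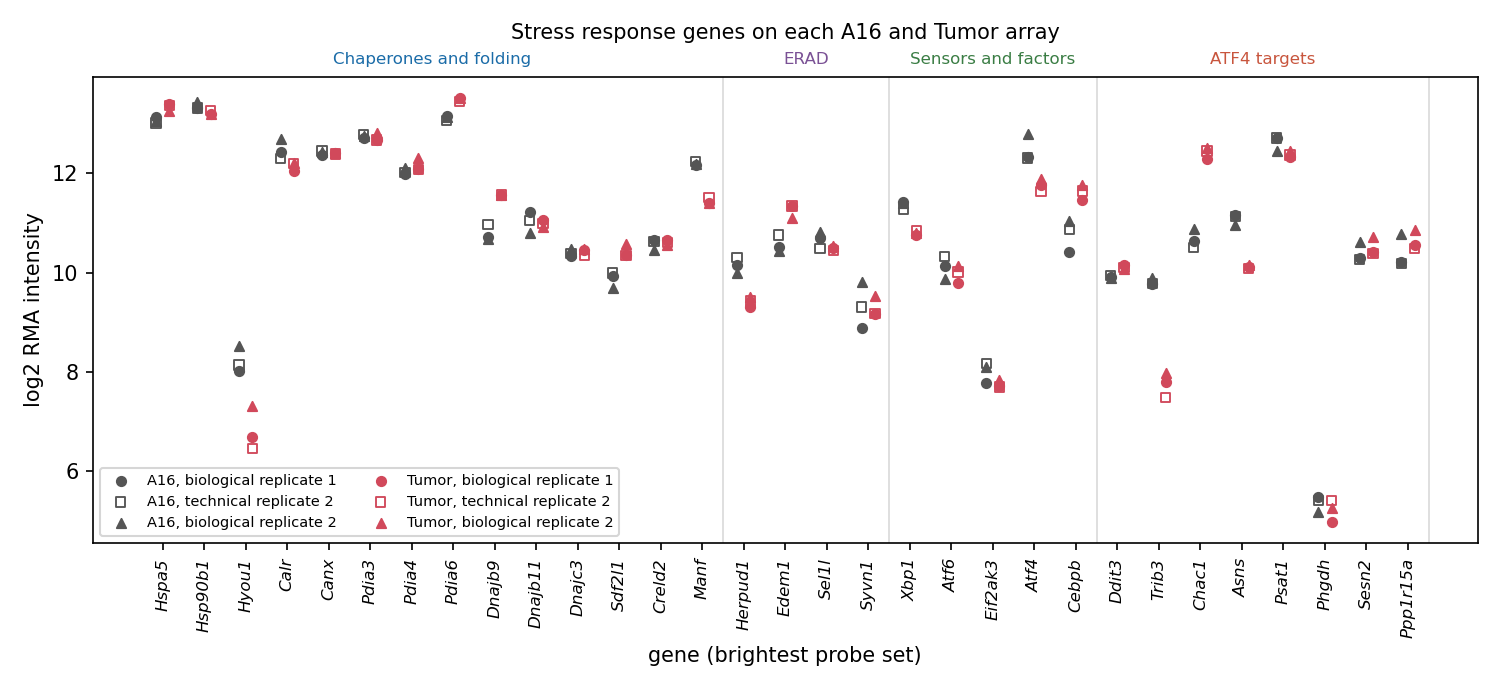
Level of each of the 31 measured members on every array, as log2 RMA intensity (y axis), by gene and role (x axis). Circles and triangles are biological replicates 1 and 2, open squares the technical repeat, grey for A16 and red for Tumor. Trib3, Hyou1 and Chac1 are the genes whose groups stand farthest apart. Heights are not comparable between genes, since each has its own probe set.

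Chaperones and folding enzymes. Most large chaperones of the endoplasmic reticulum stayed within narrow limits on their brightest probe sets, but Hyou1 fell. A few smaller factors shifted in both directions by less than 2-fold. Of the 14 genes none was called higher by limma and 1 was called lower, or 7.14% beside 5.44% of all genes. Their median difference was 0.01, with a range of -1.35 to 0.80. Unadjusted, 3 were higher and 3 lower at p under 0.05. Unadjusted counts, here and below, are descriptions with no share over all genes beside them. At any fold, 3 were higher, Dnajb9, Sdf2l1 and Pdia6, or 21.4% beside 17.4% of all genes. Lower were 2, Hyou1 and Manf, or 14.3% beside 16.6%.

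Hspa5 encodes BiP, the Hsp70 chaperone that holds the sensors inactive and is the usual gauge of the unfolded protein response. Its log2 level, given here and below in the order replicate 1, technical repeat, replicate 2, was 13.13, 13.01 and 13.06 in A16 cells and 13.39, 13.36 and 13.26 in Tumor cells. The Tumor arrays all lay above the A16 arrays, yet the difference of 0.25 ± 0.11 (SE, n = 2 per group) did not pass the test (limma, adjusted p = 0.146). Its 95% interval ran from -0.02 to 0.52, so that a rise of 2-fold lies outside it.

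Hsp90b1, the Hsp90 of the endoplasmic reticulum known as GRP94, read 13.31, 13.31 and 13.44 in A16 cells and 13.19, 13.26 and 13.20 in Tumor cells. The difference of -0.17 had an interval of -0.44 to 0.11. Calr, the lectin chaperone calreticulin, differed by -0.37 with an adjusted p of 0.0995, and this value depended on the replicate, with -0.53 (adjusted p = 0.0115) without A16 replicate 1 and -0.20 without A16 replicate 2. For the disulphide isomerase Pdia4 (0.13, interval -0.18 to 0.44), the Hsp40 co-chaperones Dnajb11 (0.01, interval -0.35 to 0.36) and Dnajc3 (0.02, interval -0.25 to 0.29), and Creld2 (0.04, interval -0.25 to 0.33), a disulphide isomerase-like factor, the intervals held 0 and stayed within 0.5 on either side. On their brightest probe sets, the 6 chaperone genes with an ERSE in their window all lay between -0.37 and 0.25. These are Hspa5, Hsp90b1, Calr, Canx, Dnajc3 and Creld2, and a dimmer probe set of Canx gave -1.36. Of the chaperones with a window but no ERSE, Pdia4 and Dnajb11 lay in that range too. Hyou1 (-1.35), Dnajb9 (0.80) and Sdf2l1 (0.63) did not. Xbp1, a factor with an ERSE, differed by -0.57.

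Hyou1 was the chaperone that fell. It encodes GRP170, a large Hsp70-like protein that exchanges nucleotide on BiP. Its level was 8.02, 8.14 and 8.52 in A16 cells and 6.70, 6.46 and 7.32 in Tumor cells, a difference of -1.35 ± 0.26, or 2.55-fold lower (adjusted p = 0.00929). Every Tumor array lay below every A16 array, and Tumor replicate 2 stood nearest to the control. A second, dimmer probe set, at 5.72 to 6.75 on the A16 arrays and 5.13 to 5.36 on the Tumor arrays, gave -1.05 ± 0.28 (limma, adjusted p = 0.0314). No detection call was used, so that neither probe set was shown to be above background in Tumor cells. The brightest one stood at the 60.4th percentile of brightness. In the PLIER values of the same arrays the difference on the brightest probe set was -1.73. Without Tumor replicate 1 it was -0.98 with an adjusted p of 0.0359, just short of the 2-fold minimum.

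Manf, a small secreted protein induced by ER stress, was lower in Tumor cells by less than 2-fold. It read 12.17, 12.24 and 12.18 in A16 cells and 11.41, 11.51 and 11.41 in Tumor cells, with a difference of -0.76 ± 0.11 (adjusted p = 0.00263). The arrays of each group lay close together and far from those of the other.

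Dnajb9, which encodes the Hsp40 protein ERdj4, went the other way. Its level was 10.71, 10.97 and 10.68 in A16 cells and 11.57, 11.56 and 11.56 in Tumor cells, a difference of 0.80 ± 0.12 (adjusted p = 0.00285). Sdf2l1, a partner of BiP and its Hsp40 proteins, rose from 9.94, 9.99 and 9.69 to 10.35, 10.34 and 10.57, a difference of 0.63 ± 0.15 (adjusted p = 0.0184). Without Tumor replicate 2 the value for Sdf2l1 was 0.51 with an adjusted p of 0.124. Pdia6, a disulphide isomerase, differed by 0.37 ± 0.11 (adjusted p = 0.04), and passed 0.05 in only 6 of 12 alternative fits. Leaving out any of the 4 replicates gave Pdia6 values of 0.35 to 0.39 with adjusted p from 0.0524 to 0.202.

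The reading of Canx depended on the probe set. Canx encodes calnexin, the membrane-bound partner of calreticulin. Its brightest probe set read 12.36, 12.45 and 12.42 in A16 cells and 12.40, 12.39 and 12.41 in Tumor cells, a difference of -0.01 ± 0.11, and the next gave 0.21 ± 0.12 (adjusted p = 0.252). The dimmest of the 3 ran from 11.30 to 11.64 in A16 cells and from 9.97 to 10.23 in Tumor cells, which is -1.36 ± 0.16 (adjusted p = 0.00115). For Pdia3, the isomerase that works with calnexin, the brightest probe set gave -0.01 ± 0.11 and the dimmer one 0.39 ± 0.13 (adjusted p = 0.0591). Of the 7 members with several probe sets, Trib3, Hyou1 and Edem1 had all of theirs past an adjusted p of 0.05 in 1 direction, whereas those of Canx and Atf6 did not agree.

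**Figure D2:**
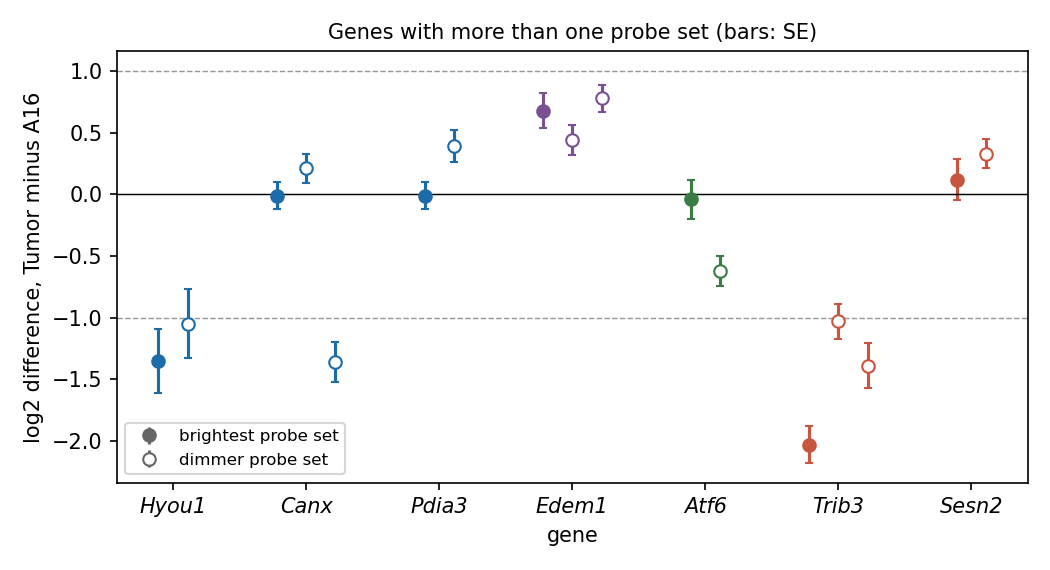
Log2 difference, Tumor minus A16 (y axis), of each probe set of the 7 members that have more than 1 (x axis), with bars for the SE. Filled points are the brightest probe set of a gene, open points the dimmer ones, and dashed lines mark 2-fold. All 3 probe sets of Trib3 lie below -1 and all 3 of Edem1 above 0, while the third probe set of Canx lies at -1.36 with the other two near 0.

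ERAD genes. The 4 members of the degradation route split, with no call by limma and a median of -0.15, and 1 was higher and 1 lower at an unadjusted p under 0.05. Herpud1, a membrane protein that assembles the retrotranslocation complex, fell from 10.16, 10.31 and 9.99 to 9.31, 9.43 and 9.51. The difference was -0.67 ± 0.13 (adjusted p = 0.00974), and the groups did not overlap. Without Tumor replicate 1 it was -0.60 with an adjusted p of 0.0796.

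Edem1, which draws misfolded glycoproteins out of the folding cycle, rose from 10.52, 10.76 and 10.43 to 11.34, 11.34 and 11.09. The difference was 0.68 ± 0.14 (adjusted p = 0.0114), and its 2 other probe sets gave 0.44 ± 0.12 (adjusted p = 0.0347) and 0.78 ± 0.11 (adjusted p = 0.00259). Without Tumor replicate 1 the brightest probe set gave 0.56 with an adjusted p of 0.0902. Sel1l and Syvn1, the adaptor and the ubiquitin ligase of the HRD1 complex, differed by -0.20 (interval -0.50 to 0.10) and -0.10 (interval -0.70 to 0.50). The 3 A16 arrays of Syvn1 spread from 8.88 to 9.81, wider than the difference between the groups, so that a change up to the ends of that interval was not detectable here.

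Sensors and transcription factors. Xbp1 and Atf4, the factors of the IRE1 and PERK branches, were both lower in Tumor cells by less than 2-fold, whereas Cebpb was higher. None of the 5 measured genes was called by limma, with 1 higher and 2 lower at an unadjusted p under 0.05, and their median was -0.27, or -0.17 with the technical array left out. Xbp1 read 11.42, 11.28 and 11.40 in A16 cells and 10.76, 10.85 and 10.79 in Tumor cells, a difference of -0.57 ± 0.11 (adjusted p = 0.00799). Spliced and unspliced Xbp1 were not read apart. Without Tumor replicate 1 the value was -0.58 (adjusted p = 0.0616), and without Tumor replicate 2 it was -0.57 (adjusted p = 0.0628).

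Atf4 read 12.33, 12.31 and 12.79 in A16 cells and 11.76, 11.63 and 11.88 in Tumor cells. The difference was -0.76 ± 0.18 (adjusted p = 0.0181), and the highest Tumor array lay below the lowest A16 array. A16 replicate 2 stood above the other A16 arrays, and without it the difference was -0.53 (adjusted p = 0.017). It was -0.67 (adjusted p = 0.114) without Tumor replicate 1 and -0.86 (adjusted p = 0.0535) without Tumor replicate 2.

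Cebpb, a bZIP factor that can pair with ATF4, read 10.42, 10.87 and 11.04 in A16 cells and 11.46, 11.64 and 11.77 in Tumor cells, a difference of 0.82 ± 0.16 (adjusted p = 0.0104). No Tumor array fell within the A16 range. Without A16 replicate 2 it was 1.01 and past the 2-fold minimum (adjusted p = 0.000318), and without Tumor replicate 2 it was 0.71 (adjusted p = 0.073). Eif2ak3, the sensor PERK, differed by -0.27 (interval -0.56 to 0.02). Atf6 differed by -0.04 (interval -0.42 to 0.35) on its brightest probe set, while the dimmer one read 6.98 to 7.23 in A16 cells and 6.30 to 6.63 in Tumor cells, or -0.62 ± 0.12 (adjusted p = 0.0103).

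ATF4 targets. The 8 genes held both the largest rise and the largest fall of the whole set, with a median of 0.01 and a range of -2.03 to 1.71. Trib3, a pseudokinase that is induced by ATF4 and CHOP and inhibits both, fell most. Its level was 9.78, 9.78 and 9.89 in A16 cells and 7.79, 7.49 and 7.98 in Tumor cells, a difference of -2.03 ± 0.15, or 4.08-fold lower (adjusted p = 0.000197). Its 2 other probe sets fell by 1.39 ± 0.18 (adjusted p = 0.00194) and 1.03 ± 0.14 (adjusted p = 0.00197) on the log2 scale. The call held in all 12 alternative limma fits, with values from -2.20 to -1.48.

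Chac1, an enzyme that degrades glutathione and a target of the ATF4 and CHOP route, rose. It read 10.64, 10.50 and 10.88 in A16 cells and 12.28, 12.45 and 12.50 in Tumor cells, a difference of 1.71 ± 0.14, or 3.28-fold higher (adjusted p = 0.000348). The groups lay over 1 log2 unit apart on every array, and the alternative fits gave 1.56 to 1.87. Trib3 and Chac1 thus moved in opposite directions, although a CARE stands in the window of each.

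Asns, asparagine synthetase, fell from 11.17, 11.13 and 10.96 to 10.12, 10.09 and 10.15. The difference was -0.92 ± 0.12 (adjusted p = 0.00188), and without A16 replicate 2 it reached -1.02 and the 2-fold minimum (adjusted p = 0.000174). Ddit3, which encodes CHOP, the factor tied to cell death under lasting stress, read 9.92, 9.94 and 9.90 in A16 cells and 10.16, 10.10 and 10.08 in Tumor cells. The Tumor arrays of Ddit3 lay above those of A16, but the difference of 0.19 ± 0.11 did not pass the test (adjusted p = 0.238, interval -0.07 to 0.45).

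Of the other targets, Psat1 of serine synthesis differed by -0.18 (interval -0.50 to 0.14), Sesn2, a stress-induced inhibitor of mTORC1, by 0.12 (interval -0.28 to 0.52), and Ppp1r15a, which encodes GADD34 and reverses the phosphorylation of eIF2alpha, by 0.20 (interval -0.32 to 0.72). Phgdh, the first enzyme of serine synthesis, was the dimmest member, at the 24.3rd percentile of brightness, and read 4.98 to 5.49 over all 6 arrays. Its difference was -0.09 in RMA but 0.59 in PLIER (adjusted p = 0.0304), so that no direction can be given for it.

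**Figure D3:**
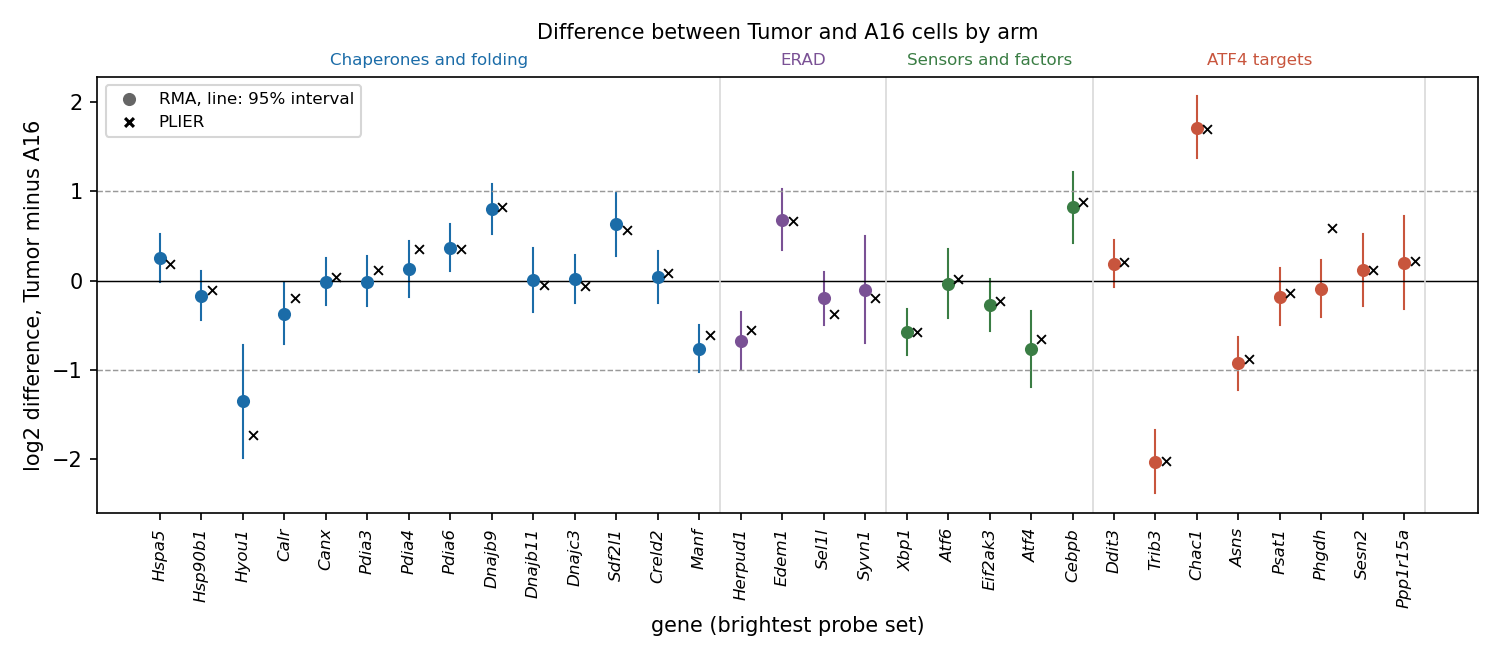
Log2 difference, Tumor minus A16 (y axis), of the 31 measured members by role (x axis). Points are RMA with the 95% interval from limma as a line (n = 2 per group), crosses are PLIER values of the same arrays, and dashed lines mark 2-fold. Only Trib3 and Hyou1 lie below -1 and only Chac1 above 1, with RMA and PLIER apart mainly at Hyou1 and Phgdh.

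Between the arms, the chaperones and the ATF4 targets both had a median difference of 0.01, with an SD over genes of 0.54 for the 14 chaperones and 1.06 for the 8 ATF4 targets, beside 0.76 over all genes. In the chaperones 1 gene passed 2-fold and in the ATF4 targets 2 did. On single arrays, the median deviation of the chaperones from the A16 mean of each gene was -0.04, 0.00 and 0.00 on the A16 arrays and 0.03, -0.00 and 0.03 on the Tumor arrays. For the ATF4 targets it was -0.02, -0.01 and 0.02 in A16 cells and -0.14, -0.03 and 0.06 in Tumor cells. Neither arm thus differed between the groups by more than its arrays did within a group, and no test was run on the medians.

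In the wider pathway, most of the other known ATF4 targets were lower in Tumor cells. Of 28 such genes measured, 9 were called lower by limma, or 32.1% beside 5.44% of all genes. None was called higher and 19 were not called, with a median of -0.74. Unadjusted, 1 was higher and 22 lower at p under 0.05. At any fold 21 were lower, or 75.0% beside 16.6% of all genes, and 1 was higher, Gdf15, a stress hormone with a difference of 0.39. This list and the other wider lists below were chosen with earlier results of these data known. Their shares are therefore descriptions and no test. Gdf15 is named here, outside the naming rule, because it was the only one higher at an adjusted p under 0.05. It was dim, at 6.01 to 6.04 in A16 cells and 6.33 to 6.51 in Tumor cells, and was not shown to be above background. Of the 28 genes, 12 encode aminoacyl-tRNA synthetases, with 10 lower at any fold, or 83.3%, and 2 called lower, or 16.7%. These 2, Eprs1 and Iars1, also outside the rule, gave -1.07 and -1.34. A dimmer probe set of each gave 0.31 and 0.19, while others of Eprs1 gave -3.19 and -4.21.

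Cth, which encodes the cystathionine gamma-lyase of cysteine synthesis, showed the largest fall of these genes on their brightest probe sets. It read 9.60, 9.60 and 9.50 in A16 cells and 6.11, 5.93 and 5.57 in Tumor cells, a measured difference of -3.76 ± 0.17 (adjusted p = 3.2e-05). The Tumor values lay below the median intensity of their array and near the level of the blood cell marker Itgam (5.76 to 6.04 over all arrays). No detection call was used here, so that Cth was not shown to be above background in Tumor cells and no fold is given. Pck2, the mitochondrial phosphoenolpyruvate carboxykinase, fell from 10.39, 10.62 and 10.92 to 7.65, 7.92 and 7.88, a difference of -2.88 ± 0.16 (adjusted p = 7.32e-05). Vldlr, a lipoprotein receptor, differed by -1.68 ± 0.14 (adjusted p = 0.000312), with 2 of its dimmer probe sets at -1.67 and -1.90 and another at -0.34 (adjusted p = 0.101), and Aldh18a1, the first step of proline synthesis, by -1.48 ± 0.15 (adjusted p = 0.000634). A CARE stood in 10 of the 25 windows found for the wider ATF4 targets.

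Among 18 other sensors, regulators and factors, 5 were called lower by limma, or 27.8% beside 5.44% of all genes, and none higher. Their median of -0.57 moved to -0.37 without A16 replicate 2 and to -0.78 when replicate 1 of A16 was left out. At any fold 8 were lower, or 44.4% beside 16.6% of all genes, and none higher. At an unadjusted p under 0.05, 1 was higher and 11 lower. Atf5, a factor translated in the same way as ATF4, read 10.20, 10.23 and 12.05 in A16 cells and 8.41, 8.61 and 8.70 in Tumor cells. Its difference of -2.53 ± 0.52 (adjusted p = 0.0118) rested partly on A16 replicate 2, and was -1.61 (adjusted p = 9.02e-06) without it, -3.44 without A16 replicate 1, and -2.43 (adjusted p = 0.0622) without Tumor replicate 1. Creb3l1, an ER-anchored factor for collagen secretion, fell by 1.85 ± 0.16, and Eif2ak2, the double-stranded RNA sensor PKR that also phosphorylates eIF2alpha, by 1.56 ± 0.13. Gcn1, the partner that activates GCN2, fell by 1.40 ± 0.14 on its brightest probe set, but the other probe set gave 0.07.

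Of 31 other folding and translocation genes, 4 were called lower, or 12.9% beside 5.44% of all genes. One direction over, 1 was called higher, or 3.23% beside 5.45%, and the median was -0.29. At any fold 12 were lower, or 38.7% beside 16.6% of all genes, and 3 higher, or 9.68% beside 17.4%. Pdia5, a disulphide isomerase, differed by -1.50 ± 0.11 (adjusted p = 0.000201). Fkbp11 and Fkbp14, prolyl isomerases of the secretory pathway, differed by -1.27 ± 0.11 and -1.14 ± 0.15, the latter -0.97 without A16 replicate 1. Fkbp2, a prolyl isomerase of the same family, rose by 1.17 ± 0.13, although its other probe sets gave 0.75 and 0.48. Of 15 other ERAD genes none was called by limma on its brightest probe set, with a median of -0.26. At any fold 3 were lower and 1 higher, and at an unadjusted p under 0.05 6 were lower and 2 higher.

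**Figure D4:**
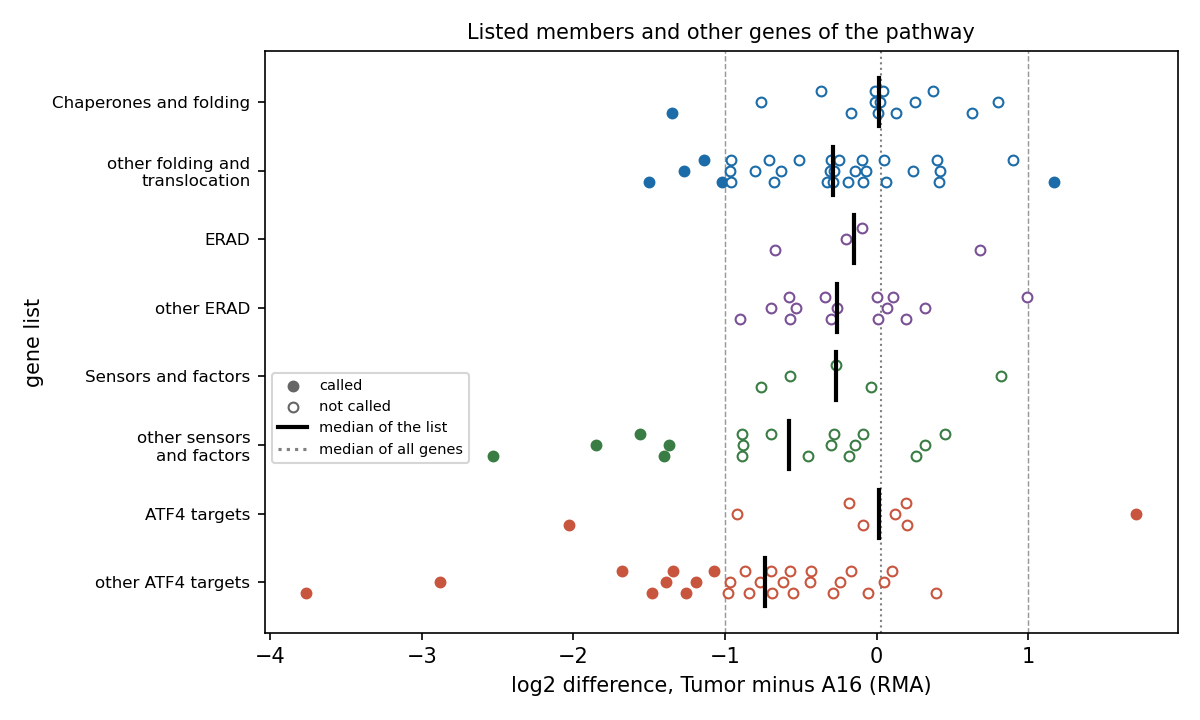
Log2 difference, Tumor minus A16 (x axis), of every measured member and of the other genes of the same pathways (y axis, 8 lists). Filled points were called, open points were not, black bars are list medians, the dotted line is the median of all 14217 genes (0.03), and dashed lines mark 2-fold. The other ATF4 targets lie mostly to the left, with a median of -0.74, while the 8 listed ATF4 targets centre on 0.01.

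Technical readings moved with the groups. Values here are on the log2 scale, with A16 arrays first and Tumor arrays second. The 3′ over the 5′ probe set of beta-actin stood at 0.64 to 0.71 and 2.25 to 2.37. The same reading was 0.84 to 1.39 and 1.83 to 2.3 for hexokinase, and -0.05 to 0.0 and 0.25 to 0.33 for Gapdh. The poly-A spikes stood at 7.51 to 7.99 and 4.82 to 4.92, and the hybridisation spikes at 9.78 to 10.18 and 10.91 to 11.18. RNA quality or labelling and group therefore cannot be told apart in these data, and their part in the differences above, including those between probe sets of Canx and Atf6, was not tested. Arrays of 1 group correlated at 0.991 to 0.997 and arrays of different groups at 0.933 to 0.949. The fibroblast label was checked on 10 markers, whose summed intensity was 80277 to 88517 in A16 cells and 51822 to 53385 in Tumor cells. Of these markers 4 were called lower, Col1a1 among them (-3.46), and none higher. Unadjusted, 1 was higher and 5 lower at p under 0.05. Of 9 blood cell markers measured, Csf1r (3.14) and Cd68 (1.07) were called higher, with sums of 1342 to 1505 against 1733 to 1817, while Ptprc, which marks all white blood cells, stayed between 4.78 and 5.42 on every array. Sums over 5 endothelial markers were 201 to 227 against 245 to 293, with none called by limma. Unadjusted, 2 of them were higher and 1 lower at p under 0.05. Over 5 epithelial markers the sums were 791 to 916 against 2093 to 2327, with 1 called higher, Krt8 (1.50). Krt8 read 10.94 to 11.09 in Tumor cells, while the others lay at or below the 26.4th percentile of brightness. Of those, Cdh1 differed by 0.93, and Epcam, Krt18 and Cldn4 by -0.16, -0.15 and 0.09. The array has no probe sets for the mouse host.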

How the data were processed

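RNA of A16 and Tumor cells was hybridised by the authors to Affymetrix rat arrays, and each of 6 arrays was deposited as 2 records, 1 of RMA and 1 of PLIER intensity values (12 records). The deposited intensities were on a linear scale, so log2 was taken. GeneChip Operating Software and Avadis were used upstream, per the methods. Median RMA intensity per array was 98.0 to 100.1. Arrays give no read depth, and the number of arrays limits the precision.

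Technical replicate 2, which the labels do not tie to a biological replicate, was averaged with replicate 1, which left 2 replicates per group. Tumor was compared with A16 with limma 3.58.1 (lmFit, eBayes, two-sided) in R 4.3.3 over 31042 probe sets, after 57 control probe sets were removed, with Benjamini-Hochberg adjustment over all of them. No filter on dim probe sets was used. Of the probe sets tested, 20826 carried 1 gene symbol, 436 several and 9780 none. Each gene was read on its brightest probe set over all RMA arrays. The fit was tested on simulated data.

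All 32 members were named, and of each wider list up to 4 called genes with the largest change. The members and lists were chosen with earlier results of these data known. Promoters were RefSeq sequences of GRCr8, matched by gene symbol. Alternatives were PLIER, quantile normalization, a filter on the dimmest 30% of probe sets, other uses of the technical array, a replicate block, each replicate left out, averaged probe sets per gene, no fold minimum, and the plain test named in the study.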

Additional observations from a re-analysis of the deposited data

How the results depend on the processing

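The call of Trib3, of Chac1 and, except without Tumor replicate 1 (-0.98), of Hyou1 held in the 12 alternative limma fits. Of 13 members with an adjusted p under 0.05, 6 kept it in all 12 alternative fits. Members called higher numbered 6 with no fold minimum and 0 by the plain test with adjustment (1 without), and 1 to 2 with a replicate left out, where Cebpb (1.01) joined without A16 replicate 2. Members called lower numbered 7 with no fold minimum, 1 by the plain test unadjusted, 0 with adjustment, and 1 to 3 with a replicate left out, where Asns (-1.02) joined without A16 replicate 2. Other genes called lower with no fold minimum were 12 for folding, 8 for sensors and factors and 21 for ATF4 targets, and 1, 0 and 0 by the plain test with adjustment (3, 4 and 9 without). A replicate left alone in its group was assumed to vary like those of the other group.

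With the replicate block, 1 member was called higher and 2 lower, as without it. Same-numbered replicates correlated at 0.12 in their deviations over only 2 pairs, so that the numbers are not taken as pairs.

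The chaperone median was 0.07 in PLIER, 0.05 after quantile normalization, 0.03 with the technical array left out and 0.00 to 0.03 with a replicate left out. The ATF4 target median was 0.16 in PLIER, 0.12 without dim probe sets, where Phgdh dropped out, and -0.09 to 0.06 with a replicate left out. The ERAD median was -0.28 in PLIER, -0.07 with the technical array in replicate 2, and -0.38 to 0.08 with a replicate left out. The median of the sensors and factors among the members was -0.23 in PLIER, -0.18 after quantile normalization, -0.17 with the technical array left out, and -0.34 to -0.21 with a replicate left out. That of the other sensors and factors was -0.66 in PLIER, -0.39 with the technical array in replicate 2, and -0.78 to -0.37 with a replicate left out.

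Uncalled genes near 0 changed sign. In PLIER, Canx was 0.04, Pdia3 0.12, Dnajb11 -0.05, Dnajc3 -0.06, Atf6 0.02 and Phgdh 0.59. After quantile normalization, Canx was 0.05, Pdia3 0.07 and Dnajb11 0.00. With the technical array left out, Canx was 0.02, Pdia3 0.01, Dnajb11 -0.02 and Syvn1 0.00, and with it in replicate 2, Canx was 0.00, Dnajb11 -0.07 and Syvn1 0.04. Dnajb11 was -0.02 with 3 arrays and a random block, and Pdia3 0.19 as the mean of its probe sets. With a replicate left out, the lowest and highest values were -0.08 and 0.06 for Pdia3, -0.17 and 0.18 for Dnajb11, -0.04 and 0.07 for Dnajc3, -0.05 and 0.14 for Creld2, -0.46 and 0.26 for Syvn1, -0.21 and 0.14 for Atf6, -0.23 and 0.04 for Phgdh, -0.05 and 0.28 for Sesn2, and -0.09 and 0.49 for Ppp1r15a. The cause of these shifts was not tested. As means of their probe sets, Fkbp2 (0.80) and Gcn1 (-0.67) fell short of 2-fold.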
